A study of Mus musculus with 24 samples.

Results

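miR-146a and miR-146b are a pair of microRNAs (miRNAs) made from separate loci that share a seed, the bases 2 to 8 of a miRNA that pair with target mRNAs. Of the 1009 miRNAs listed, 3 were followed here, mmu-miR-146a-5p, mmu-miR-146b-5p and mmu-miR-146b-3p. The other arm of miR-146a, mmu-miR-146a-3p, was also listed but not among the members chosen, and it had 0 to 2 reads per library. They were selected on earlier results from the same libraries, in which the rise of mmu-miR-146b-5p between virgin and pregnant glands stood out, so their levels at these stages are given as a description with no test. Whether other values entered that choice is not given in the sources used here.

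Small RNA was sequenced from the mammary glands of 24 female C57/BL6 mice, 1 library per mouse and 6 mice per stage. Virgin adults were 10 weeks old (W10), pregnant mice were at day 18 (P18), and lactating mice were at day 7 (Lac7). Involuting glands were taken at day 3 (Inv3), and ages were given for W10 only. Whole glands were homogenized, so epithelium, stroma and immune cells were measured together. Libraries held between 660346 and 1165321 reads on miRNAs, and the stage medians were 967413 (W10), 952079.5 (P18), 693167 (Lac7) and 1030978 (Inv3). Levels are in RPM, reads scaled so that each library has the same total of 1e6 on the listed miRNAs, and 1 read was worth 0.858 to 1.51 RPM depending on the library.

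Transcription of both miR-146 genes is raised by NF-kB, and miR-146b has also been linked to STAT signalling. Their 5p arms target the mRNAs of the adaptors TRAF6 and IRAK1, which pass on signals from Toll-like and interleukin-1 receptors, so the pair is known as a brake on inflammatory signalling. In the mammary gland, STAT5 drives milk production, whereas STAT3 and NF-kB are active when milk stasis starts involution.

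The sequences of all 3 members were matched in RefSeq (GRCm38.p6). They are shown because the shared seed of the 5p arms defines the pair and because the arms are so alike that reads could be confused. The seed is in capitals.
mmu-miR-146a-5p: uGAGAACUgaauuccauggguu
mmu-miR-146b-5p: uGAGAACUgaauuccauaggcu
mmu-miR-146b-3p: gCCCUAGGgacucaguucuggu
Both 5p arms are 22 bases long, with the first 17 bases and 20 bases in all being identical. Counted from 1 at the 5′ end, mmu-miR-146b-5p differs from mmu-miR-146a-5p by G18A and U21C. Among the 854 listed miRNAs with a RefSeq sequence, no other shared the seed of the 5p arms, and none shared that of mmu-miR-146b-3p.

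The hairpin of miR-146a (Mir146) lies on the minus strand at chr11:43374397-43374461 and overlaps no other annotated gene in GENCODE. Its 5p arm spans chr11:43374435-43374456. The hairpin of miR-146b (Mir146b) lies on the plus strand at chr19:46342762-46342870. It falls within the protein-coding gene Mfsd13a, on the same strand and outside its annotated exons. The 5p arm spans chr19:46342790-46342811 and the 3p arm chr19:46342828-46342849.

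mmu-miR-146a-5p was most abundant in virgin and involuting glands and least abundant in lactation. At W10 its lowest, median and highest levels among the 6 mice were 11427, 13015 and 14724 RPM. At P18 they were 6474, 8163 and 9163 RPM. At Lac7 they were 1829, 3078 and 4778 RPM. The mice at W10 lay above those at P18, and the mice at P18 above those at Lac7, with no overlap. At Inv3 the levels were 10578, 13307 and 23198 RPM. Mice at Inv3 lay above those at P18 and Lac7 and overlapped those at W10. In the order W10, P18, Lac7 and Inv3, the means were 13137 ± 1251, 7945 ± 935, 3267 ± 1143 and 14669 ± 4678 RPM (SD, n = 6 per stage). Its rank by mean level among the 1009 miRNAs was 16, 22, 37 and 14 in the same order.

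mmu-miR-146b-5p followed another course, with its lowest levels in virgin glands and its highest in lactation. At W10 its lowest, median and highest levels were 1880, 2369.9 and 2816 RPM. At P18 they were 27349, 31767 and 33963 RPM. At Lac7 they were 47442, 50078 and 54079.7 RPM. These stages did not overlap, and all mice at P18 and Lac7 were far above the virgin mice. At Inv3 the levels were 5787, 19495 and 26279 RPM. On the RPM scale every mouse at Inv3 lay between the groups at W10 and P18, and mice 1 and 2 were the lowest at 5787 and 7148 RPM. From W10 to Inv3 the means were 2358 ± 399.5, 31080.4 ± 2803, 50208 ± 2446 and 17185 ± 9197 RPM (SD, n = 6 per stage). The order of the stages by mean was Lac7, P18, Inv3 and W10, with no overlap between neighbours on RPM. With DESeq2 size factors the highest value at Inv3 (26251) passed the lowest at P18 (25212), so P18 and Inv3 overlapped, and the other neighbours did not. At Lac7 it made up 5.02% of the reads of the library on average and ranked 7, compared with 0.236% and rank 47 at W10.

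mmu-miR-146b-3p, the other arm of the miR-146b hairpin, was barely detected. A library held 0 to 4 of its reads at W10 and 2 to 7 at P18, compared with 5 to 10 at Lac7 and 3 to 9 at Inv3. From W10 to Inv3 the mean levels were 2.11 ± 1.58, 3.91 ± 2.13, 10.98 ± 3.5 and 5.97 ± 3.32 RPM (SD, n = 6 per stage). A count of 0 allows 3 reads, or 2.57 to 4.54 RPM depending on the library, so the levels at W10 and P18 were near the limit of detection. At Inv3, mice 1 and 5 with 3 reads each and mouse 2 with 4 reads were also near this limit. On RPM, mice at Lac7 lay above those at W10 and each other pair of stages overlapped. With size factors, mice at Lac7 (7.9 or more) also lay above those at P18 (7.19 or less).

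**Figure D1:**
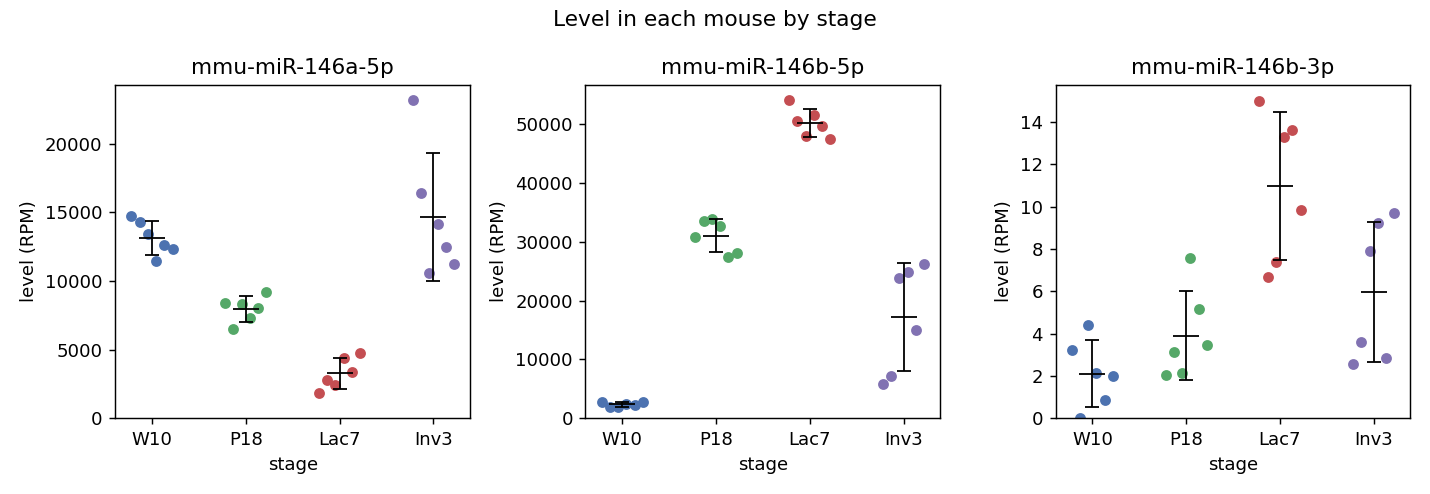
Level of each member (y axis, RPM, starting at 0) by stage (x axis), with a point per mouse and a bar for the mean ± SD of 6 mice. mmu-miR-146a-5p is lowest at Lac7 (3267 RPM on average), where mmu-miR-146b-5p is highest (50208 RPM), and mmu-miR-146b-3p stays below 15.1 RPM.

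From W10 to P18, mmu-miR-146b-5p was 13.2-fold higher on average and mmu-miR-146a-5p was 1.65-fold lower. On the log2(RPM + 1) scale the differences were 3.73 and -0.73, while the median of the 544 miRNAs tested was -0.32. Scaling by DESeq2 size factors brought that median to -0.12 and the differences to 3.98 and -0.48. Of the 3 members, 2 had stages that did not overlap here, where this held for 26.7% of the miRNAs tested, and this contrast entered the choice of the members. From P18 to Lac7, mmu-miR-146b-5p was 1.61-fold higher and mmu-miR-146a-5p 2.43-fold lower, and the same 2 members did not overlap (29.0% of miRNAs tested). The log2 differences were 0.70 and -1.35, beside a median of -0.34, or 1.0 for mmu-miR-146b-5p with size factors, where the median was -0.14. Across the other pairs of stages, 3 of 3 members did not overlap between W10 and Lac7 (41.7%), 1 between W10 and Inv3 (15.1%) and 2 between P18 and Inv3 (12.5%). With size factors the count was 3 between P18 and Lac7 (28.1% of miRNAs tested) and 1 between P18 and Inv3 (12.7%). The other counts were as on RPM. The shares beside them were then 25.7% between W10 and P18, 36.8% between W10 and Lac7 and 9.93% between W10 and Inv3. The comparisons share libraries and are not independent of each other.

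Between Lac7 and Inv3, the comparison that was tested, the 5p arms moved in opposite directions. mmu-miR-146a-5p rose 4.49-fold, from 3267 ± 1143 to 14669 ± 4678 RPM (SD, n = 6 mice each). Its log2 fold change was 2.19 with a standard error of 0.19 (limma adjusted p = 9.2e-10), and it was higher in 6 of 6 mice than in any mouse at Lac7. mmu-miR-146b-5p fell 2.92-fold, from 50208 ± 2446 to 17185 ± 9197 RPM. Its log2 fold change was -1.78 with a standard error of 0.26 (limma adjusted p = 2.6e-06), and it was lower in 6 of 6 mice. Without mice 1 and 2 of Inv3, left out after the data were seen, its log2 fold change was -1.19 (limma adjusted p = 1.4e-07). Of the 544 miRNAs tested, the rise of mmu-miR-146a-5p ranked 12 among increases and the fall of mmu-miR-146b-5p ranked 19 among decreases. mmu-miR-146b-3p was at 10.98 RPM at Lac7 and 5.97 RPM at Inv3 with overlapping mice, and its log2 difference of -0.88 (standard error 0.39, limma adjusted p = 0.0682) did not pass the test. With size factors it passed at -1.05 (limma adjusted p = 0.0239), and also when mouse 4 or mouse 6 of Inv3 was left out (adjusted p = 0.0419 and 0.0383 by limma). The call for this arm, at 3 to 10 reads per library, thus depended on the scaling and on single mice.

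Calls required both an adjusted p below 0.05 and a log2 change of 1 or more in either direction. By this rule 146 of the 544 miRNAs were called (26.8%), 90 higher at Inv3 (16.5%) and 56 lower (10.3%). The split was more even with size factors, at 84 higher and 69 lower, and by DESeq2 on recovered reads, at 74 and 67, while edgeR gave 89 and 62. The members passed in 2 of 3 cases, 1 in each direction. The mice of the 2 stages did not overlap for 2 of 3 members, compared with 24.8% of the miRNAs tested. In bulk tissue, fewer cells of a type and less RNA per cell cannot be told apart.

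Since the 5p arms share their seed, their sum and the part taken by each were also compared. The sum of mmu-miR-146a-5p and mmu-miR-146b-5p was 13906 to 17540.1 RPM at W10 and 35379 to 42258 RPM at P18. At Lac7 its lowest, median and highest values were 50435, 53157 and 55976 RPM. At Inv3 they were 23540.1, 31745 and 39063 RPM. All mice at Inv3 lay below those at Lac7. The sum fell 1.68-fold (two-sided exact permutation test over 924 arrangements, p = 0.0022, adjusted p = 0.0032 over 3 measures), and 0.0022 is the smallest p that this test can give.

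mmu-miR-146b-5p made up 11.98% to 18.3% of the reads of both 5p arms at W10 and 75.4% to 83.8% at P18. At Lac7 its lowest, median and highest shares were 90.9%, 94.2% and 96.7%, and at Inv3 they were 19.97%, 59.2% and 70.1%. The predominant 5p arm was thus mmu-miR-146a-5p in each virgin gland and mmu-miR-146b-5p in each pregnant or lactating gland. At Inv3, mice 1 and 2 had mostly mmu-miR-146a-5p, with mmu-miR-146b-5p shares of 19.97% (95% Clopper-Pearson interval 19.5 to 20.4%) and 30.4% (29.8 to 30.9%). The other 4 mice had mostly mmu-miR-146b-5p. The mean share went from 93.9% ± 2.13 to 51.4% ± 21.3 (SD, n = 6 each; two-sided exact permutation test, p = 0.0022, adjusted p = 0.0032), with no overlap between the stages. Such intervals cover counting error only.

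How reads that fit both 5p arms were assigned is not given in the sources used here, so values of the minor arm are uncertain by an unknown amount. The lowest ratio of one arm to the other was in mouse 1 of Lac7, where mmu-miR-146a-5p was at 3.38% of the level of mmu-miR-146b-5p. In virgin glands, mmu-miR-146b-5p was at 13.6% to 22.4% of the level of mmu-miR-146a-5p.

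The 3p arm took a small part of the reads of the miR-146b hairpin at all stages. Over all mice of a stage it had 12 reads at W10 (0.0843%, 95% Clopper-Pearson interval 0.0436 to 0.147%) and 23 at P18 (0.0127%, 0.0081 to 0.0191%). At Lac7 it had 46 reads (0.0217%, 0.0159 to 0.029%) and at Inv3 34 reads (0.0347%, 0.024 to 0.0485%). In mouse 2 of W10 it had 0 of 2228 reads, where 3 reads would be a share of 0.135% and the 95% Clopper-Pearson interval reaches 0.165%. Per mouse, its lowest, median and highest shares were 0.0132%, 0.0232% and 0.0278% at Lac7 and 0.019%, 0.0369% and 0.0503% at Inv3. The stages overlapped, and 5 of 6 mice at Inv3 lay above those at Lac7. The mean share was 1.69-fold higher at Inv3 (two-sided exact permutation test, p = 0.0173, adjusted p = 0.0173), although the arm itself was not called. With medians in place of means p was 0.0671, and without mice 1 and 2 of Inv3 it was 0.0762. At these read counts, the 95% intervals of single mice from the 2 stages overlapped.

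**Figure D2:**
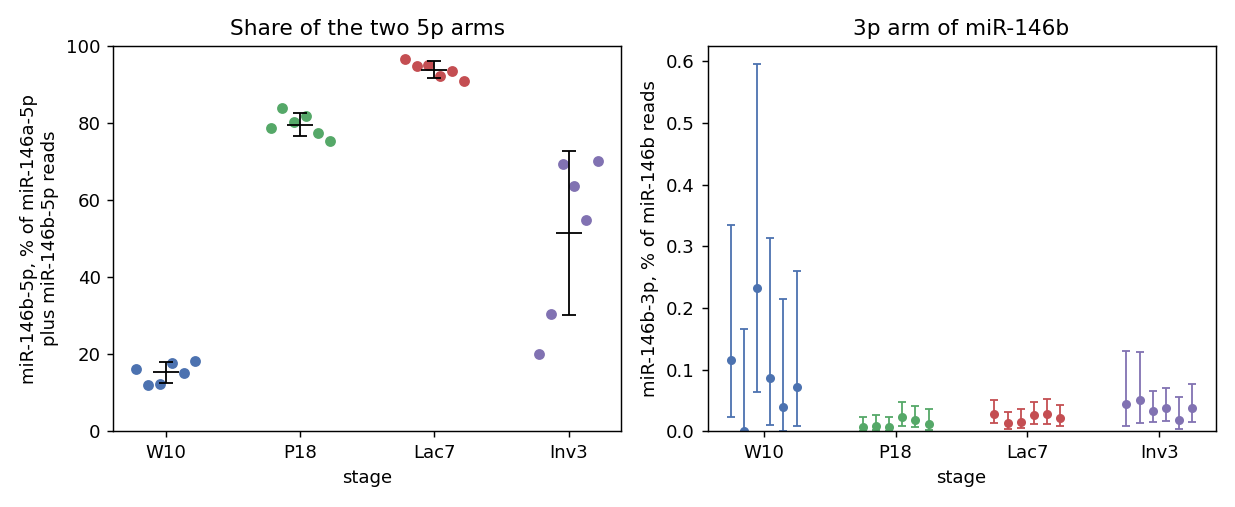
Left, the share of mmu-miR-146b-5p in the reads of both 5p arms (y axis, %) by stage, with a point per mouse and the mean ± SD of 6 mice. Right, the share of mmu-miR-146b-3p in miR-146b reads (y axis, %), with a point per mouse and its 95% Clopper-Pearson interval. The left share is highest at Lac7 (93.9% on average) and spreads from 19.97% to 70.1% at Inv3, and the right share is 0.233% or lower in each mouse.

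Lists of cell type markers were described beside the members. The epithelium list held 8 miRNAs of the miR-200 and miR-183 families, all of them detected, with mmu-miR-200a-3p as the most abundant. Its members summed to between 15674 and 21648 RPM at W10, between 52130.5 and 66604 at P18, and between 121881 and 141556 at Lac7. At Inv3 it was 28134, 24934, 77992, 63955, 32265 and 83280.3 RPM in mice 1 to 6. Mice 1 and 2, which had the least mmu-miR-146b-5p of their stage, also had the lowest sums of this list. Of the 8 miRNAs, 7 were called lower at Inv3 than at Lac7 and 0 higher (10.3% and 16.5% of all tested), with a median log2 fold change of -1.56 beside 0.28 over all 544 tested. miR-205 and miR-203, also found in epithelium, were outside this list. mmu-miR-205-5p was called higher, at 154.8 RPM at Lac7 and 688.4 RPM at Inv3 (log2 fold change 2.06, limma adjusted p = 1.5e-07). mmu-miR-203-3p was lower at Inv3 but not called (log2 fold change -0.71). mmu-miR-200a-3p fell from 73975 ± 7342 to 31552 ± 17899 RPM (SD, n = 6 each). The part of the epithelium list in the course of mmu-miR-146b-5p over the stages was not tested. The relations between mice given below have stage means subtracted, so they cannot address that course.

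Ratios of the members to these lists were chosen after the values were seen and carry no test. mmu-miR-146b-5p was at 10.3% to 17.7% of the epithelium sum in virgin glands and at 42.8% to 65.2% in pregnant ones. It was at 34.2% to 41.7% of that sum in lactation and 20.6% to 46.7% in involution. From W10 to P18 the list was 3.42-fold higher on average, compared with 13.2-fold for the miRNA. From P18 to Lac7 the list was 2.15-fold higher and the miRNA 1.61-fold.

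The leukocyte list held 6 miRNAs, all detected, with mmu-miR-142a-5p as the most abundant. They mark white blood cells at large (miR-142a), myeloid cells (miR-223) and lymphocytes (miR-150 and miR-342). mmu-miR-142b was not in the list, although it averaged 11729 RPM at Lac7 and 35710 RPM at Inv3. The list itself averaged 7493.5 and 20359.9 RPM at these stages, so its sums and the ratios to them depend on this choice. Sums of this list ranged from 28123 to 51783 RPM in virgin glands and from 8676 to 24751 in pregnant ones. They ranged from 4466 to 12729 RPM in lactation and from 14403 to 26685 in involution. Mice 4 and 5 of Lac7, with 12729 and 12616 RPM, stood above the other 4 of their stage, which had 5203 RPM or less. Of the 6 miRNAs, 6 were called higher at Inv3 than at Lac7 (16.5% of all tested), with a median log2 fold change of 1.86 beside 0.28 over all tested. mmu-miR-142a-5p was at 5354 ± 3363 RPM at Lac7 and 13908 ± 3659 RPM at Inv3 (SD, n = 6 each). mmu-miR-146a-5p was at 23.2% to 52.4% of the leukocyte sum in virgin glands, 31.4% to 84.3% in pregnant, 26.96% to 100.6% in lactating and 59.8% to 87.5% in involuting ones, so all stages overlapped in this ratio apart from W10 and Inv3. The overlap with Inv3 rested on 1 mouse at P18 (mouse 4, 84.3%) and 1 at Lac7 (mouse 6, 100.6%), as the next highest were 56.3% and 52.96%, both below the lowest of Inv3. The part of white blood cells in the course of mmu-miR-146a-5p over the stages was not tested. The relations given below have stage means subtracted and concern only differences between mice of a stage.

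mmu-miR-146a-5p was also set against the stroma list, and this ratio differed between stages. It was at 6.31% to 8.47% of that sum in virgin glands and 3.27% to 4.46% in pregnant ones, then 1.16% to 3.25% in lactation and 3.56% to 6.94% in involution. The mice at Lac7 lay below those at each other stage, with no overlap, and the mice at P18 lay below those at W10. This ratio depends most on mmu-miR-143-3p, the largest part of the sum at each stage. Ratios to the other members of the list were not computed. Members of this list went different ways. From W10 to Inv3, mmu-miR-143-3p averaged 92349, 145529, 138521 and 246220 RPM, and mmu-miR-199a-3p averaged 82291, 50990, 19785 and 48927 RPM. Between W10 and Lac7, mmu-miR-199a-5p (4897 to 1385 RPM) and mmu-miR-214-3p (1107 to 164 RPM) also fell. The stroma list (5 miRNAs, led by mmu-miR-143-3p) had 3 called higher at Inv3 and 0 lower, with a median log2 fold change of 1.16. Its mean sums were 181795, 201028, 160808 and 300619 RPM from W10 to Inv3. The endothelium list (2, led by mmu-miR-126a-3p) had 15816, 15608, 18466 and 15593.5 RPM, with 0 called and a median of -0.06, as the log2 fold change of mmu-miR-126a-3p was only -0.26 (limma adjusted p = 0.0192). The red blood cell list (3, led by mmu-miR-451a) had 1145, 633, 979.7 and 824 RPM, with mmu-miR-144-3p called lower, the other 2 not called (log2 differences 0.12 for mmu-miR-451a and 0.35 for mmu-miR-144-5p) and a median of 0.12. The skeletal muscle list (3, led by mmu-miR-133a-3p) had 10881, 954, 1996 and 366 RPM, with 2 called lower and a median of -2.36. The mice of Lac7 were split in this list. Mice 4 and 5 had 103.7 and 115.1 RPM, below each mouse at Inv3 (209.9 RPM or more), and the others had 2193.3 RPM or more. Over all 544 miRNAs tested, 16.5% were called higher and 10.3% lower, and the median was 0.28. No miRNA of these lists was at 0 in all libraries, and their part in the levels of the members was not tested.

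**Figure D3:**
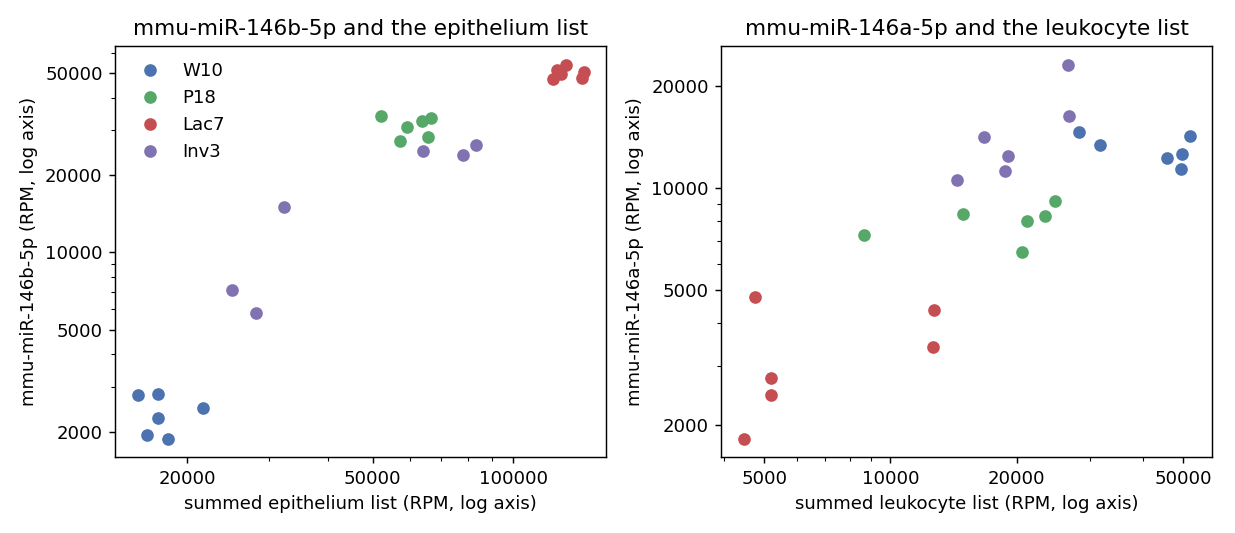
Level of mmu-miR-146b-5p against the summed epithelium list (left) and of mmu-miR-146a-5p against the summed leukocyte list (right), in RPM on log axes, with a point per mouse coloured by stage. Mice at Lac7 have the highest epithelium sums (121881 RPM or more), and the mice at Inv3 spread from 24934 to 83280.3 RPM.

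Relations between mice were then examined within stages, with stage means subtracted from log2(RPM + 1) values, over 24 mice and 6 relations with 100000 two-sided permutations each. Each relation was also computed without the 2 mice farthest from the median of its first-named 5p arm over all stages. This choice ignored stage, so it does not show whether mice far from their stage mean carry a relation. Mice 1 and 2 of Inv3, with the least mmu-miR-146b-5p of their stage, stayed in throughout. mmu-miR-146a-5p and mmu-miR-146b-5p were inversely related (Spearman's rho = -0.55, permutation p = 0.0076, adjusted p = 0.0241). Pearson's r was -0.55 (permutation p = 0.0039, adjusted p = 0.0235) and -0.68 without mice 1 and 3 of Lac7. With size factors r was -0.45 (permutation p = 0.0498, adjusted p = 0.0697), which did not pass the adjustment. Within stages of 6 mice, r was -0.20, -0.57, -0.52 and -0.87 from W10 to Inv3 (exact permutation p = 0.679, 0.231, 0.304 and 0.0153). Mice with more of one arm tended to have less of the other, and r was negative at each of the 4 stages. Without the mice of Inv3, an alternative chosen after the data were seen, r was -0.24 (permutation p = 0.117, adjusted p = 0.352).

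mmu-miR-146b-5p went with the epithelium list (r = 0.84, permutation p = 0.0239, adjusted p = 0.0359). By rank, rho was 0.49 (permutation p = 0.0687, adjusted p = 0.0855). Without mice 2 and 3 of W10, r was 0.85, with mice 1 and 2 of Inv3 still in. The relation rested on Inv3, where r was 0.91 (exact permutation p = 0.0292), compared with -0.06 at W10, -0.10 at P18 and -0.03 at Lac7 (exact p = 0.95, 0.864 and 0.963). Without Inv3, r was -0.06 (permutation p = 0.863, adjusted p = 0.863). Mice that differed in the miRNAs of this list thus differed in mmu-miR-146b-5p at Inv3, and no such relation was seen among the mice of the other stages. The SD of mmu-miR-146b-5p was 16.9%, 9.0% and 4.9% of its mean at W10, P18 and Lac7, beside 53.5% at Inv3. With 6 mice and narrower spreads, r near 0 at those stages does not show that the relation is absent there. mmu-miR-146a-5p was inversely related to the same list (rho = -0.58, permutation p = 0.008, adjusted p = 0.0241). Here r was -0.50 (permutation p = 0.0188, adjusted p = 0.0359) and -0.62 without mice 1 and 3 of Lac7. By stage, r was -0.52, -0.35, -0.64 and -0.73 from W10 to Inv3 (exact permutation p = 0.301, 0.501, 0.182 and 0.0917), and without Inv3 it was -0.39 over 18 mice (permutation p = 0.0461, adjusted p = 0.277).

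With the leukocyte list, mmu-miR-146a-5p had rho = 0.48 (permutation p = 0.0378, adjusted p = 0.0756). Its r was 0.42 (permutation p = 0.101, adjusted p = 0.101) and 0.26 without mice 1 and 3 of Lac7, and none of these passed the adjustment. By stage it was -0.55, 0.34, 0.48 and 0.83 from W10 to Inv3 (exact permutation p = 0.264, 0.476, 0.307 and 0.0375). For mmu-miR-146b-5p, rho with this list was -0.35 (permutation p = 0.0712, adjusted p = 0.0855). Its r was -0.33 (permutation p = 0.0230, adjusted p = 0.0359) and -0.36 without mice 2 and 3 of W10. By stage it was -0.15, -0.30, 0.08 and -0.92 (exact permutation p = 0.753, 0.624, 0.912 and 0.025). The arms of the miR-146b hairpin had rho = 0.42 (permutation p = 0.0861, adjusted p = 0.0861). Their r was 0.50 (permutation p = 0.0318, adjusted p = 0.0381) and 0.60 without mice 2 and 3 of W10. By stage this was 0.29, -0.23, 0.58 and 0.87 (exact permutation p = 0.588, 0.665, 0.232 and 0.0347). Without the mice of Inv3, r was -0.11 for mmu-miR-146b-5p with the leukocyte list and 0.19 for the miR-146b arms (permutation p = 0.597 and 0.588, adjusted p = 0.717 for both). None of the 24 values within a stage was adjusted for their number. As each library has the same total, a large rise of some miRNAs lowers the RPM of others, so the relations were also computed with size factors. Besides the 5p arms at -0.45, the inverse relations were then -0.49 for mmu-miR-146a-5p with the epithelium list (permutation p = 0.0181, adjusted p = 0.0543) and -0.30 for mmu-miR-146b-5p with the leukocyte list (permutation p = 0.0583, adjusted p = 0.0697). Of the 6 relations, 5 passed the adjustment on RPM and 0 with size factors, where 4 had an unadjusted p under 0.05 and the adjusted p ran from 0.0543 to 0.0697.

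The miRNAs with levels most like each member were found by Pearson's r on log2(RPM + 1) over the 24 libraries, among 186 others that averaged 100 RPM or more in some stage. As the libraries fall into stages, r is a description. Closest to mmu-miR-146b-5p were mmu-miR-200a-5p, mmu-miR-148a-3p and mmu-miR-141-5p (r = 0.97 each), then mmu-miR-183-5p and mmu-miR-200a-3p (r = 0.96 each). Of these, mmu-miR-148a-3p, a miRNA abundant in milk, was at 2356, 21329, 46228 and 9078 RPM on average from W10 to Inv3. Closest to mmu-miR-146a-5p were mmu-miR-224-5p and mmu-miR-342-3p (r = 0.90 each), mmu-miR-23a-3p (0.89), mmu-miR-155-5p (0.87) and mmu-miR-21a-5p (0.86). Here mmu-miR-342-3p, found in lymphocytes, was at 2917, 1667, 481 and 1995 RPM from W10 to Inv3. By Spearman's rho, 2 of the 5 miRNAs were among the closest for either member. Over the same libraries r between the 5p arms themselves was -0.72.

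A list of other miRNAs linked to endotoxin, NF-kB or STAT3 was also described. Of 16, 14 were in the data and all of these were tested, with 5 called higher at Inv3 than at Lac7 and 0 lower, beside 16.5% and 10.3% of all 544 tested. Their median log2 fold change was 0.75, or 0.97 without mmu-miR-212-5p, which had no reads at Lac7, beside 0.28 over all 544 tested. The list counts both arms of some hairpins. Among the 5 called were mmu-miR-21a-5p and mmu-miR-21a-3p, arms of the same hairpin, so the calls are not independent of each other. mmu-miR-155-5p, which is raised by Toll-like receptor ligands in macrophages, was at 41.1 ± 20.6 RPM at Lac7 and 128 ± 36.8 at Inv3 (log2 fold change 1.70, standard error 0.24, limma adjusted p = 1.1e-06). mmu-miR-21a-5p, whose gene STAT3 activates, rose from 10648 ± 1361 to 31169 ± 9209 RPM (1.52, standard error 0.14, limma adjusted p = 2.2e-09). mmu-miR-125b-5p, which endotoxin lowers in macrophages, rose from 3085 to 11511 RPM (1.77, standard error 0.22, limma adjusted p = 1.9e-07). The direction of the list as a whole therefore includes a miRNA that endotoxin is known to lower. mmu-miR-221-3p was at 2519 and 2658 RPM, mmu-miR-9-5p at 49.2 and 51.9 RPM and mmu-miR-222-3p at 33.3 and 35.5 RPM at Lac7 and Inv3, and none of them was called. In this list, mmu-miR-155-5p and mmu-miR-21a-5p are also among those most like mmu-miR-146a-5p.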

How the data were processed

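The authors prepared QIAseq miRNA libraries, trimmed the reads (Trimmomatic 0.36 and cutadapt per the submitters' processing notes), assigned them with QuickMIRSeq to miRBase 22 and deposited RPM values, reads scaled to a total of 1e6 on the listed miRNAs per library. The series' design text gives other days for lactation and involution than the sample labels, which were used. Whether molecular identifiers were counted is not given in the sources used here. Values of each library are multiples of 1 step, and 100% came out as whole reads, within 0.1 of a read, in every library. In mouse 7 of W10 the step is close to 1 RPM, so its read total is less certain. All 24 columns were mapped to mice, and no library was left out. The 60 pairs of libraries of a stage differed beyond sampling noise (smallest chi-square per degree of freedom 9.63).

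The fit took all 24 libraries and the 544 miRNAs that averaged 1 RPM or more in some stage. It was made with limma 3.58.1 (trended eBayes) under R 4.3.3 from log2(RPM + 1) values, with two-sided Benjamini-Hochberg adjusted p. Fold changes on this scale understate those of scarce miRNAs. RPM depends on the library total: when abundant miRNAs change, the RPM of unchanged ones shifts, and calls of small changes can come from this. Size-factor scaling was therefore an alternative. In tests on simulated data, limma on RPM made few wrong calls when the total held and many when abundant miRNAs shifted it, unlike the count tests. On recovered reads, edgeR 4.0.16 called 151 and DESeq2 1.42.0 called 141 miRNAs between Lac7 and Inv3. Permutation tests and intervals came from scipy 1.17.1 and numpy 2.4.6 (python 3.11.15), and plots from matplotlib 3.10.9. Shares and the sum were compared by exact permutation. Intervals and limits of detection cover counting error only.

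The members and lists were chosen with earlier results of these data known. Named were the 3 members, the 6 miRNAs of the endotoxin list with the highest mean, the 5 most like each 5p arm, those sharing a seed and the cell type markers. Alternatives were other pseudocounts, filters, scaling, tests, blocks and samples left out.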

Additional observations from a re-analysis of the deposited data

Results flagged for a closer look

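In groups of 6 mice, a value was singled out when its gap to the nearest mouse, as a part of the range of the group, passed the 95% critical value of Dixon, which chance gives in about 1 in 20 groups. Of 52 groups examined, 2 had such a mouse, and none was of a member. The summed stroma list at W10 was 211300 RPM in mouse 1, compared with 169005 to 181168 RPM in the others. The summed skeletal muscle list at Inv3 was 907.7 RPM in mouse 5, compared with 209.9 to 315.9 RPM in the others.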

How the results depend on the processing

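The log2 fold changes of mmu-miR-146a-5p and mmu-miR-146b-5p between Lac7 and Inv3 kept their direction and their call in each alternative run. They were 2.04 to 2.31 and -1.95 to -1.51 when 1 mouse was left out, and 1.96 and -1.19 without mice 1 and 2 of Inv3. For mmu-miR-146b-3p this range was -1.03 to -0.71, and it passed the test without mouse 4 (-1.01, limma adjusted p = 0.0419) or mouse 6 of Inv3 (-1.03, limma adjusted p = 0.0383). It also passed with size factors (-1.05) and with DESeq2 on reads (-1.11). Without mice 1 and 2 of Inv3 it was -0.56 (limma adjusted p = 0.3258) and was not called. It was also not called with a pseudocount of 10 RPM (-0.40, limma adjusted p = 0.0173) or 0.1 RPM (-1.01, limma adjusted p = 0.2188). The cause was not tested.

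The 146 miRNAs called became 79 with a pseudocount of 10 RPM and 66 of the 188 tested with a filter at 100 RPM, which tests fewer miRNAs, and were 135 to 158 without 1 mouse and 123 without mice 1 and 2 of Inv3. Mouse numbers did not pair the libraries: same-numbered libraries of different stages had a mean correlation of -0.05 (lowest -0.79) over 33 pairs and 188 miRNAs. With the number as a replicate block, the log2 fold changes were 2.19, -1.78 and -0.88, 146 miRNAs were called, and no call of a member changed.

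The share of mmu-miR-146b-3p rose by 0.0137 percentage points with medians (exact p = 0.0671) and by 0.00973 without mice 1 and 2 of Inv3 (0.0762), and by 0.0123 to 0.0186 without 1 mouse. The share of mmu-miR-146b-5p and the sum kept their call in each alternative. Leaving out mice of Inv3 beyond 1 at a time was chosen after seeing the data.

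Of the 6 relations between mice, 5 passed the adjustment on log2 RPM, 2 on RPM without a log, and 0 with size factors or without Inv3. The number was also 5 without the 2 mice farthest from the median over all stages. These were mice of W10 or Lac7, and mice 1 and 2 of Inv3 stayed in. This alternative therefore does not show whether mice far from their stage mean carry the relations. With size factors r was -0.45 for the 5p arms, 0.49 for the miR-146b arms, -0.30 for mmu-miR-146b-5p with the leukocyte list, and -0.49 and 0.84 for mmu-miR-146a-5p and mmu-miR-146b-5p with the epithelium list (permutation, adjusted p 0.0543 to 0.0697). Without Inv3 the same values were -0.24, 0.19, -0.11, -0.39 and -0.06, the last with its direction turned. Without a log, mmu-miR-146b-5p had -0.35 with the leukocyte and 0.80 with the epithelium list, and mmu-miR-146a-5p had -0.66 with the latter (permutation, adjusted p 0.0527, 0.0527 and 0.0554). The cause was not tested. With 0 to 10 reads per library, depth limits what can be said of mmu-miR-146b-3p.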
